A study of Sus scrofa domesticus with 4 samples.

Results

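The genes described here are those of the insulin-like growth factors and their binding proteins that the array design represents by RefSeq transcripts of IGF1, IGF2, IGFBP2, IGFBP3 and IGFBP5. All non-control probes with such a transcript identifier were taken, which gave 10 probes for the 5 genes among 3029 genes that could be named on the array. IGF2 had 5 probes, IGFBP2 had 2, and IGF1, IGFBP3 and IGFBP5 had 1 each. The probes of a gene share a single transcript identifier, so they are repeated readings of 1 transcript and not replicates of the condition.

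Explants of myometrium, the muscular wall of the uterus, were taken from the middle of the uterine horns of 4 gilts (Large White x Polish Landrace, 7 to 8 months old) on days 15 to 16 of gestation. They were preincubated for 2 h and then cultured for 24 h either with orexin A (OXA), a hypothalamic peptide that regulates appetite and arousal, or without treatment. The sample labels give 10 nM OXA and the series' design text gives 10 µM, so the dose used is not settled here. RNA of OXA-treated and of non-treated explants was hybridised together on each of 4 dual-colour Agilent arrays, and by the labels OXA was in the Cy5 channel of arrays 1 and 3 and in the Cy3 channel of arrays 2 and 4. The arrays are treated as 4 replicates, and whether the pair of channels on an array belongs to a single gilt is not stated.

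Insulin-like growth factors I and II are secreted peptides that signal through the receptor tyrosine kinase IGF1R, while IGF2R takes up IGF-II for degradation. Binding proteins hold most of the growth factors outside cells, lengthen their life and either limit or deliver them to the receptor, and several of them also bind matrix or cell surfaces. In the uterus the system is known for its part in growth of the muscle layer and in exchange with the conceptus around implantation.

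All 10 probes were well above background in both channels of all 4 arrays, with no outlier flag and no saturated spot, so every member ratio below was measured on both sides. This was not so for all other genes below. The probes of IGF2R, IGFBP4, STAT5A, GHR, THY1, C1QA, MRC1, KRT8, EPCAM, CDH1 and MUC4 were not well above background in every channel. Of 43603 probes, 19505 passed the filter on dim probes, for which a probe had to exceed background clearly in the OXA channel, or in the non-treated one, of 3 or more arrays. The muscle markers ACTA2, DES, CNN1, MYL9 and SMTN, which were the 5 of 9 listed muscle markers that could be named, were well above background in all channels. The arrays differed from each other. Across 19437 probes with a value on all arrays (genes are not replicates), Pearson's r of the log2 ratios was -0.59 between arrays 1 and 2, -0.38 between arrays 2 and 4, although these share a dye orientation, and 0.62 between arrays 1 and 4. The direction of the ratios is therefore not settled by the labels alone. The log2 ratios of the members and of the pathway genes named are given as labelled and beside it for 2 other readings: array 2 turned, and OXA read as the Cy5 channel throughout, the order in which the labelling protocol names the dyes. Values with array 2 turned come from a fit with a dye term. Array 4 is then alone in its dye order and weighs more than each other array, so these values are not plain means.

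The comparison asks whether transcripts of the growth factors and binding proteins differ in early-pregnancy myometrium after exposure to OXA. None of them passed the test. limma called 0 of 10 member probes, and 0 of 19505 probes on the array (0% called in either direction, lowest adjusted p = 0.998), with 0 member probes and 237 probes overall (1.22%) at an unadjusted p under 0.05. As labelled, IGFBP3 had the highest mean log2 ratio of OXA over non-treated, 0.47 ± 0.44 (SD, n = 4), and was the 1 member probe with a positive ratio on all 4 arrays. Among all probes, 3.96% were positive on all 4 arrays and 3.76% were negative on all 4, and 0 member probes were negative throughout. These counts depend on the direction of array 2. With array 2 turned, 5 member probes were positive on all 4 arrays, 3 of IGF2 and 2 of IGFBP2 but not IGFBP3, against 17.7% of all probes. With OXA read as Cy5 throughout, 1 IGF2 probe was, against 5.45%. The member probes had a median of 0.07 for the mean log2 ratio, against -0.02 for all tested probes. In bulk tissue, fewer cells of a type and less RNA per cell cannot be told apart.

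**Figure D1:**
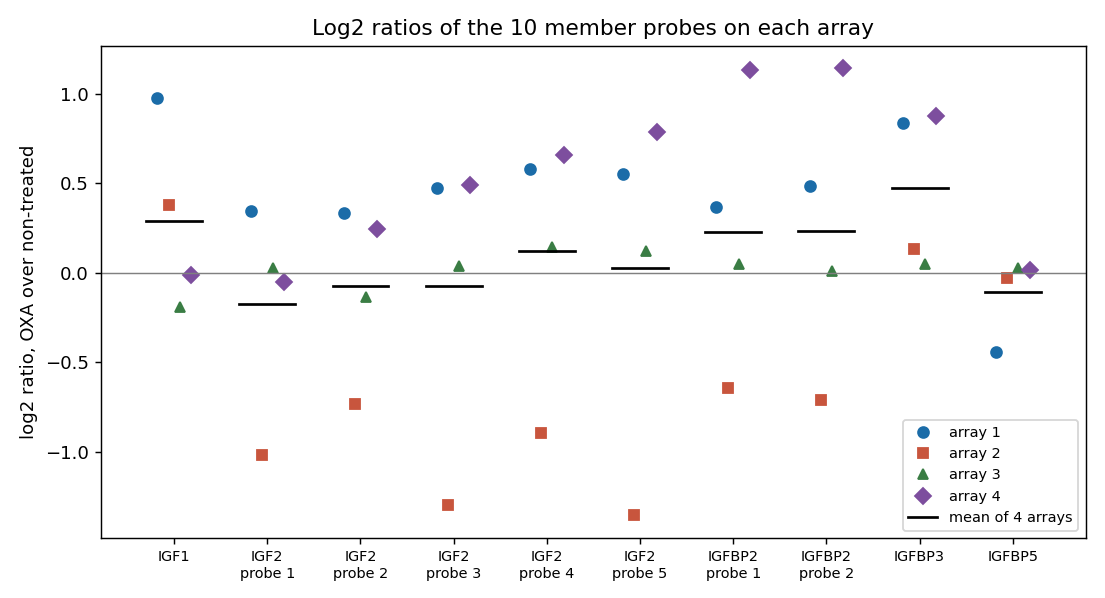
Log2 ratio of OXA over non-treated (vertical axis) for each of the 10 member probes (horizontal axis, probes of a gene ordered from the highest to the lowest mean level), with 1 symbol per array and a bar at the mean of the 4 arrays. IGFBP3 lies above 0 on every array, while IGF2 and IGFBP2 lie below 0 on array 2 and mostly above 0 on arrays 1 and 4.

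Of the ligands, IGF1 encodes insulin-like growth factor I, which carries much of the growth effect of growth hormone and is also made locally in the uterus. Its processed signal (intensity units, dye-normalized within an array and not scaled between arrays) in the OXA and the non-treated channel was 1013 and 514 on array 1, 1209 and 931 on array 2, 790 and 902 on array 3, and 902 and 910 on array 4. The log2 ratios were 0.98, 0.38, -0.19 and -0.01 on arrays 1 to 4. The OXA channel was thus brighter on arrays 1 and 2 and close to the non-treated channel or below it on arrays 3 and 4, and the channels overlapped across arrays. The mean log2 ratio was 0.29 ± 0.52 (SD, n = 4), or 1.22-fold, with a 95% interval from -0.46 to 1.04 in the limma fit (adjusted p = 0.998). Array 1 carried most of it, since without array 1 the estimate was -0.0051. With array 2 turned it was 0.06, and with OXA read as Cy5 throughout 0.11.

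IGF2 encodes insulin-like growth factor II, an imprinted growth factor of fetal and reproductive tissues. Its brightest probe, A_72_P599193, had a processed signal of 4368 with OXA and 3445 without on array 1, 1538 and 3113 on array 2, 1448 and 1422 on array 3, and 3241 and 3354 on array 4. The log2 ratios were 0.34, -1.02, 0.03 and -0.05. As labelled, the OXA channel was the lower by a wide margin on array 2 and the brighter on array 1. On arrays 3 and 4 the channels lay close together. The mean was -0.17 ± 0.59 (SD, n = 4), with a 95% interval from -0.88 to 0.53 (limma adjusted p = 0.998). The sign rests on array 2: the estimate was 0.07 without array 2, 0.21 with array 2 turned and 0.36 with OXA read as Cy5 throughout.

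The other 4 IGF2 probes had means of -0.07, -0.07, 0.12 and 0.03 as labelled, in falling order of level, so the 5 probes did not share a sign. On single arrays they mostly did: all 5 were positive on array 1 (0.33 to 0.58), all 5 were negative on array 2 (-1.36 to -0.73), and 4 of 5 were positive on array 3 (-0.13 to 0.14) and on array 4 (-0.05 to 0.78). The probes of this 1 transcript thus differed from each other by 0.24 on array 1 and by 0.83 on array 4. On array 4 the ratios ran in the order of the probes' levels, from -0.05 for the brightest through 0.24, 0.49 and 0.66 to 0.78 for the dimmest. After background correction by normexp and loess normalization of the scanner's median signals, the same 5 probes had 0.14, 0.05, 0.27, 0.47 and 0.45 on array 4, so the span was smaller and the brightest probe changed sign. Averaged over its 5 probes, IGF2 had 0.46, -1.06, 0.04 and 0.43 on arrays 1 to 4, a mean of -0.04 ± 0.71 (SD, n = 4). With array 2 turned, the 5 fitted values were 0.21 to 0.73, and with OXA read as Cy5 throughout they were 0.17 to 0.36.

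**Figure D2:**
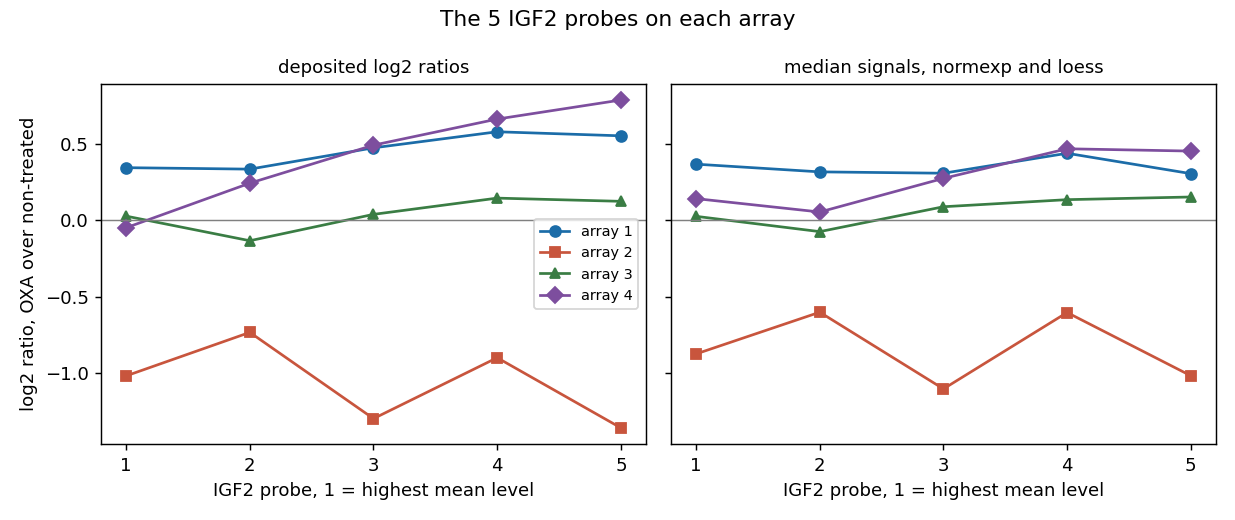
Log2 ratio of OXA over non-treated (vertical axis) of the 5 IGF2 probes, ordered by mean level from 1 (highest) to 5 (horizontal axis), with a line per array. The left panel holds the deposited ratios and the right panel those from median signals with normexp and loess. Array 2 lies below 0 with all 5 probes in both panels, and array 4 runs upward from the brightest to the dimmest probe on the left.

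Among the binding proteins, IGFBP3 is the main carrier of insulin-like growth factors in plasma and is also secreted by uterine cells. Its probe, A_72_P165666, had a processed signal of 1670 with OXA and 936 without on array 1, 2776 and 2530 on array 2, 3590 and 3474 on array 3, and 3740 and 2038 on array 4. The log2 ratios were 0.84, 0.13, 0.05 and 0.88. The treated channel was the brighter on every array, by a clear margin on arrays 1 and 4 and by little on arrays 2 and 3. The mean of 0.47 is 1.39-fold, with a 95% interval from -0.25 to 1.19 (limma unadjusted p = 0.16, adjusted p = 0.998). In the exact two-sided sign-flip test over the 4 arrays p was 0.125, the smallest value that 4 arrays allow, and 0.625 when adjusted by Benjamini-Hochberg over the 5 genes. Normexp and loess gave 0.42. Array 2 turned gave 0.56 in the fit, in which array 4 weighs more, and 0.41 as a plain mean. With OXA read as Cy5 throughout the value was -0.03, since the ratios of arrays 1 and 4 then cancel.

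IGFBP2 binds both growth factors and is made by stromal and epithelial cells of many tissues. Its brighter probe, A_72_P634395, had a processed signal of 415 with OXA and 322 without on array 1, 374 and 583 on array 2, 596 and 577 on array 3, and 1420 and 647 on array 4. The log2 ratios were 0.37, -0.64, 0.05 and 1.13. Array 4 gave the brightest treated channel of all, and array 2 went the other way. The mean was 0.23 ± 0.74 (SD, n = 4), or 1.17-fold, with a 95% interval from -0.65 to 1.10 (limma adjusted p = 0.998). The second IGFBP2 probe had 0.48, -0.71, 0.01 and 1.14, a mean of 0.23 ± 0.78, so on each array the 2 probes lay within 0.12 of each other. The estimate for the brighter probe turned to -0.22 without array 4 and to -0.02 with OXA read as Cy5 throughout. It was 0.67 without array 2 and 0.74 with array 2 turned, both above the value as labelled by over 1.5 times. In both fits array 4 is alone in its dye order, and the plain mean of this probe with array 2 turned was 0.55. With array 2 turned, 27% of all tested probes had an unadjusted p under 0.05 in limma, as did 4 of the 10 member probes (2 of IGF2 and both of IGFBP2).

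IGFBP5 is a binding protein that also attaches to extracellular matrix. Its probe, A_72_P146706, had a processed signal of 1385 with OXA and 1882 without on array 1, 729 and 745 on array 2, 817 and 803 on array 3, and 653 and 645 on array 4. The log2 ratios were -0.44, -0.03, 0.03 and 0.02, so that 3 arrays gave near-equal channels and array 1 stood apart. The mean was -0.11 ± 0.22 (SD, n = 4), with a 95% interval from -0.74 to 0.53 (limma adjusted p = 0.998). The estimate was 0.0087 without array 1, -0.06 with array 2 turned and -0.10 with OXA read as Cy5 throughout. In the Sscrofa11.1 gene table IGFBP5 is the next protein-coding gene to IGFBP2. As labelled, the brighter IGFBP2 probe had log2 ratios of 0.37, -0.64, 0.05 and 1.13 on arrays 1 to 4. Set against IGFBP5, the signs were opposite on array 1 and the ratios were close on array 3. On array 4 IGFBP5 had 0.02.

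**Figure D3:**
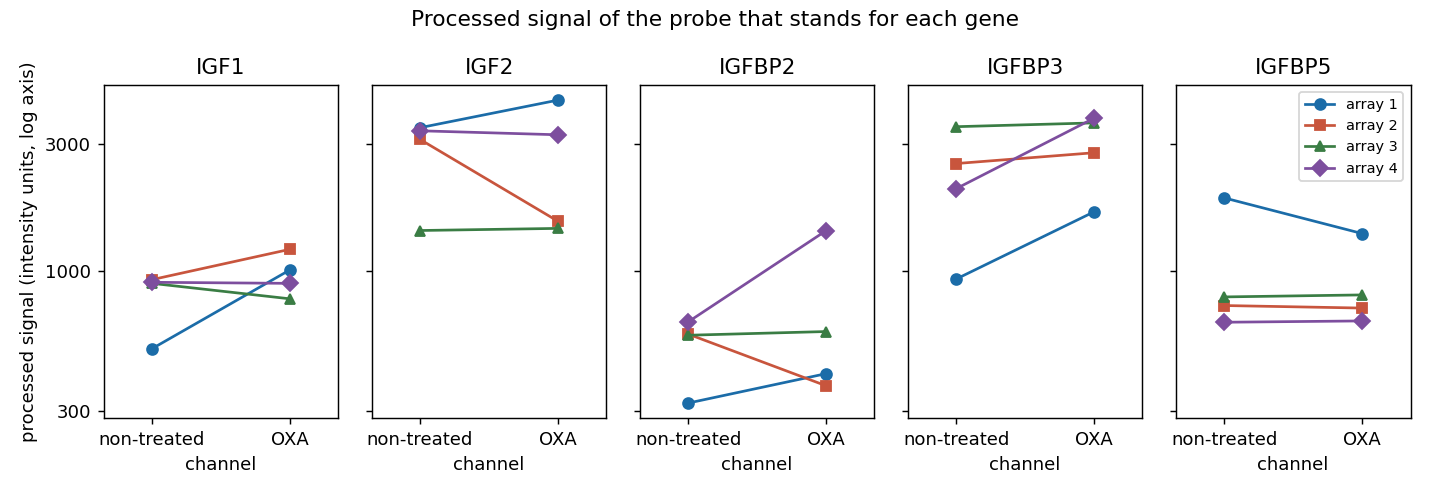
Processed signal (vertical axis, log scale, intensity units) in the non-treated and the OXA channel (horizontal axis) for the probe that stands for each gene, with a line joining the channels of each of the 4 arrays. Levels can be compared within a panel but not between panels; the lines for IGFBP3 all run upward, those of IGFBP5 are flat except on array 1, and for every gene the channels overlap across arrays.

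The spread of levels between arrays was larger than the mean difference between the channels. After loess and quantile normalization of the average levels between arrays, the non-treated level of IGFBP3 was 11.58 ± 0.80 (log2 scale, SD, n = 4). The difference between its OXA and its non-treated level was 0.42 ± 0.38. The non-treated channels spanned a 3.62-fold range for IGFBP3, from the lowest on array 1 to the highest on array 3. For IGFBP5 they spanned 3.22-fold, with array 1 the highest, and the levels were 10.42 ± 0.72 without and 10.34 ± 0.43 with OXA. IGF2, with its brightest probe, spanned 2.01-fold without treatment and 2.54-fold with OXA, with array 3 the lowest in both. IGF1 spanned 1.72-fold without treatment and the brighter IGFBP2 probe 1.72-fold, with array 1 the lowest for each. These channels are grouped as labelled. Array 1 thus held the lowest non-treated levels of IGF1, IGFBP2 and IGFBP3 and the highest of IGFBP5 and of the brightest IGF2 probe. For the IGF2 probes A_72_P544532, A_72_P537638 and A_72_P537644 the highest non-treated level was on array 2. For all 5 genes the range of the OXA channels overlapped that of the non-treated channels. This overlap runs across arrays and leaves out that both channels share an array, so it does not give their order within an array. As labelled, the IGFBP3 level was higher with OXA on each array, while the probes that stand for the other genes had differences of both signs.

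**Figure D4:**
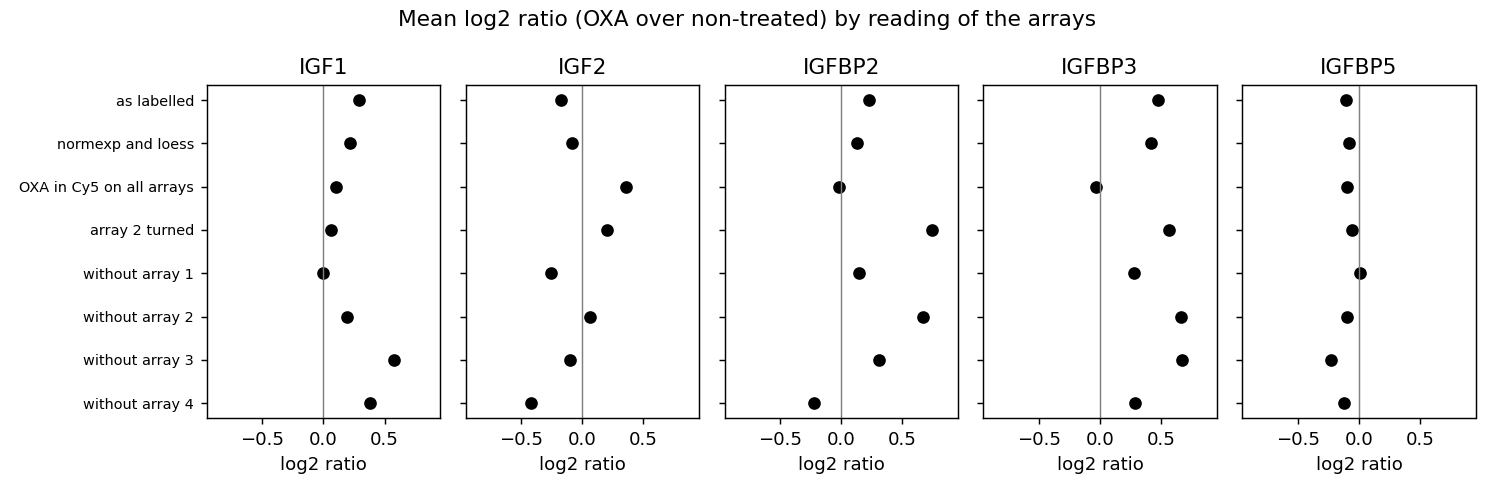
Estimated log2 ratio of OXA over non-treated (horizontal axis) for the probe that stands for each gene under 8 readings of the arrays (vertical axis), from the dyes as labelled to fits that leave out 1 array. IGFBP3 is positive in all of them except with OXA in Cy5 on all arrays, at -0.03, and IGF2 and IGFBP2 lie on both sides of 0. IGF1 and IGFBP5 change sign only without array 1, to -0.0051 and 0.0087.

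The sign pattern of array 2 against arrays 1 and 4 was seen in 6 of 10 member probes, 4 of IGF2 and 2 of IGFBP2, which were positive on arrays 1 and 4 and negative on array 2. Of all probes, 31.1% had this pattern. This count was chosen after the values were seen, and the 6 probes stand for only 2 transcripts. IGF1 and IGFBP3 were positive on array 2, at 0.38 and 0.13.

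The other genes of the pathway were taken from a list of 44 receptors, binding proteins, proteases, inhibitors and signalling genes. Of these, 18 could be named on the array and 15 had a tested probe. None passed (0 of 15, against 0% of all probes), and 0 had an unadjusted p under 0.05. With the brightest probe of each gene, 10 had a positive and 5 a negative mean log2 ratio, with a median of 0.09 against -0.02 for all tested probes. The list's medians were 0.27, -0.24, 0.24 and 0.39 on arrays 1 to 4, so array 2 again lay below 0, and the median of the fitted values was 0.41 with array 2 turned and 0.12 with OXA read as Cy5 throughout. IGFALS, which encodes the acid-labile subunit of the circulating complex, STC2, a stanniocalcin that inhibits pappalysins, and IRS1, a receptor substrate, had no probe that passed the filter.

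Among the receptors, IGF1R, the signalling receptor for both growth factors, had 0.53, -1.11, -0.58 and 0.66, a mean of -0.13 ± 0.86 (SD, n = 4). The estimate turned to 0.51 with array 2 turned and to 0.10 with OXA read as Cy5 throughout. Its second probe had a mean of -0.21. IGF2R, the clearance receptor for IGF-II, had 1.24, -0.76, 0.33 and 0.63, a mean of 0.36 ± 0.84, from the 1 of its 4 probes that passed the filter, and normexp and loess gave 0.04 for it. The other readings gave 0.70 with array 2 turned and 0.42 with OXA as Cy5. As labelled, both receptors were higher in the treated channel on arrays 1 and 4 and lower on array 2.

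Of the other binding proteins, IGFBP4, an inhibitor of growth factor action that is cleaved by PAPPA, had 0.09 ± 0.14 (SD, n = 4), with 0.07 for array 2 turned and -0.12 for OXA as Cy5. IGFBP6, which prefers IGF-II, had 0.84, -1.51, 0.10 and 0.0045, a mean of -0.14 ± 0.99 with its brighter probe, and its second probe averaged 0.19. The brighter probe's estimate changed sign under both other readings, to 0.41 with array 2 turned and 0.61 with OXA as Cy5. IGFBP7, a relative with low affinity that is abundant in vessel walls, had 0.0045 ± 0.46, and its 3 probes averaged -0.05 to 0.0045. For its brightest probe array 2 turned gave -0.19 and OXA as Cy5 gave 0.16. As labelled, none of these 3 genes had a ratio of 1 sign on all 4 arrays with its brightest probe, while IGFBP6 is positive on all 4 with array 2 turned.

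As labelled, the 4 genes of the list with the largest mean ratio in either direction were MAP2K1, IGF2R, STAT5A and STC1. With array 2 turned they were STC1 (0.71), IGF2R (0.70), GRB2 (0.60) and AKT1 (0.56), and with OXA as Cy5 IGFBP6 (0.61), IGF2R (0.42), GHR (0.36) and STAT5A (0.28), so IGF2R alone was among the 4 in all 3 readings. MAP2K1, a kinase that relays growth factor signals to ERK, had 0.49, -0.10, 0.77 and 0.39, a mean of 0.39 ± 0.36 (SD, n = 4), and its 5 probes averaged 0.17 to 0.47. The other readings gave 0.42 with array 2 turned and 0.24 with OXA as Cy5. STAT5A, which transmits the growth hormone signal that induces IGF1, had 0.91, -0.42, 0.34 and 0.56, a mean of 0.35 ± 0.56, and 0.56 with array 2 turned. STC1, a secreted glycoprotein that inhibits pappalysins, had -0.60, -0.24, 0.94 and 1.22, a mean of 0.33 ± 0.89, and turned to -0.16 with OXA as Cy5. As labelled, each of them was negative on array 2, and limma's adjusted p was 0.998 for each.

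Markers of other cell types moved between the arrays as well, and their medians are given as labelled: turning array 2 changes the sign of its median, and reading OXA as Cy5 changes the signs on arrays 2 and 4. Uterine epithelium markers, of which 6 of 9 could be named and 5 tested, had median log2 ratios of -1.15, 2.06, -0.90 and 1.87 on arrays 1 to 4, and their summed processed signal ran from 2447 to 10530 with OXA and from 2428 to 6057 without. Arrays 2 and 4 have OXA in Cy3 by the labels, so these medians were lower in Cy5 on all 4 arrays. With OXA read as Cy5 throughout, KRT8 had -1.01, EPCAM -2.02, CDH1 -1.48, MUC4 -1.72 and SPP1 -0.17. The cause of this split by dye order was not tested. CLDN4, a tight junction claudin, was not well above background often enough to be tested. Macrophage markers, 7 of 9 named and tested, had medians of 0.61, -0.43, 1.93 and 0.73, with summed signals of 1266 to 8209 with OXA and 1392 to 5018 without. The macrophage medians had the signs of the IGFBP2 and IGF2 gene means on every array, and so did the pathway list's medians. The brightest IGF2 probe differed in sign on array 4, at -0.05. Of all probes, 31.1% were positive on arrays 1 and 4 and negative on array 2. The macrophage medians were highest on array 3, where the brighter IGFBP2 probe had 0.05 and the brightest IGF2 probe 0.03. The part of macrophage markers in the results was not tested.

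Markers of fibroblasts and stroma, 5 of 9 named and tested, had medians of -0.14, -0.43, 0.19 and -0.59, with summed signals of 54089 to 82262 with OXA and 62290 to 115356 without. Endothelial markers, 5 of 8 named and tested, had -0.42, -0.35, 0.06 and 0.54, with 4412 to 11639 with OXA and 5734 to 8615 without. Smooth muscle markers had 0.07, -0.17, 0.23 and -0.28, with 231063 to 548506 with OXA and 214371 to 647780 without. As labelled, IGFBP3, high on arrays 1 and 4 and near 0 on arrays 2 and 3, had the order of arrays of none of these lists.

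**Figure D5:**
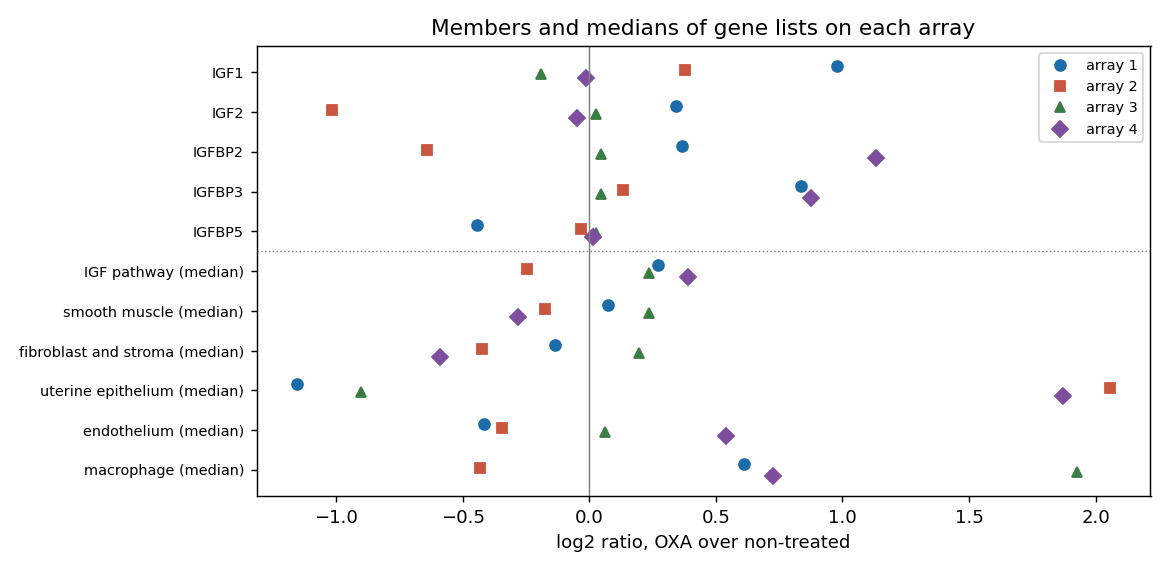
Log2 ratio of OXA over non-treated (horizontal axis) on each array for the probe that stands for each of the 5 genes (above the dotted line) and median log2 ratio of the pathway list and of 5 lists of cell type markers (below it). The epithelial medians separate arrays 2 and 4, at 2.06 and 1.87, from arrays 1 and 3, which is the split by dye order in the labels. Of the members, the IGF2 probe shows this split with the opposite signs. It had 0.34 and 0.03 on arrays 1 and 3, and -1.02 and -0.05 on arrays 2 and 4. The other members do not fall in that order.

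As a description of likeness, the normalized log2 levels of the members were correlated with those of 1980 other named genes over the 8 channels, which share 4 arrays and 1 slide. The highest Pearson r for IGFBP3 was with VEGFA (r = 0.97), the angiogenic growth factor, followed by LDHA (r = 0.93), a lactate dehydrogenase subunit, and PIK3CG (r = 0.92), a catalytic subunit of phosphoinositide 3-kinase. For IGF2 the closest were IKBKG, FASTK and TACO1 (r = 0.98, 0.97 and 0.97), and for IGF1 they were USP18, an interferon-induced protease, BTG3 and CFLAR (r = 0.92, 0.91 and 0.91). IGFBP2 was closest to PRDX6, a peroxiredoxin, PMEPA1 and FAAH (r = 0.92, 0.90 and 0.86), and IGFBP5 to VGLL3 and GTF2H2 (r = 0.94 and 0.91). These are the highest of 1980 values over 8 points, and no p is given. Among the members themselves, levels of IGFBP2 and IGFBP5 ran opposite over the 8 channels (r = -0.83), as did those of IGF2 and IGFBP3 (r = -0.73), while IGFBP2 and IGFBP3 had r = 0.67.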

How the data were processed

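Per the file headers, Agilent Feature Extraction 10.7.3.1 made the scanner files, which hold spot intensity. Per the file headers, LogRatio is the log10 of Cy5 over Cy3 after dye normalization. The authors' deposited table of values gives log2 ratios with no stated direction. Set against the scanner values it had a slope near 1 on arrays 1 and 3 and near -1 on arrays 2 and 4, so it runs as OXA over non-treated, with at least 99.9% of tested probes within 0.001. Its column medians were 0.10, 0.10, -0.19 and 0.07 over all rows and -0.05 to 0.0094 over tested probes. Given that match to the scanner values, no further centring is seen in the tested probes. Over all probes without an outlier flag, 61.56% to 83.03% lay within 0.001. How the values of the remaining probes were made stays unknown.

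These ratios were used throughout, because the choice of members names this table, and normexp (offset 50) with loess on median signals was an alternative. Background correction can shift dim probes most. Spots with an outlier flag and 1417 control spots were left out. Names came from unversioned RefSeq accessions matched to the Sscrofa11.1 gene table (6700 of 43603 probes). No probe, promoter or protein sequence was used here.

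limma 3.58.1 in R 4.3.3 fitted an OXA term and a probe-specific dye term (residual df 2, prior df 4.13). Two-sided p-values had Benjamini-Hochberg adjustment over 19505 probes, with a threshold of 0.05. The brightest tested probe stands for a gene. Named genes were the members, the receptors and binding proteins of the list that were tested, the 4 genes of the list with the largest mean ratio in size, and the 3 most alike genes per member, of which 1 is not reported here. Members, lists and alternatives were chosen with earlier results of these data known. All arrays share 1 slide. The number of arrays limits the precision, and nothing in the labels ties a channel to a gilt, so p-values measure the spread between these arrays.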

Additional observations from a re-analysis of the deposited data

Results flagged for a closer look

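IGFBP5 stood apart on array 1, with a log2 ratio of -0.44 against -0.03 to 0.03 on the other 3 arrays. Its gap to the nearest array, divided by the range, was 0.879, above Dixon's 95% critical value for 4 values. This was 1 of 24 sets of 4 values examined (10 member probes, 8 pathway genes and 6 list medians), and chance sets apart about 5%.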

How the results depend on the processing

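As labelled and in every alternative, 0 of the 10 member probes were called. The number of probes called was 0 in the 9 alternatives that keep 4 arrays, and leaving out 1 array gave 1 to 1108: 1 without array 1, 1108 without array 2, 5 without array 3 and 6 without array 4, with no member among them. Such a fit has only 1 array of 1 dye order, and its spread is that of the other pair. With OXA in Cy5 on all arrays, which leaves dye and OXA inseparable, IGF2 turned to 0.36, IGFBP2 to -0.0201 and IGFBP3 to -0.0319. With array 2 turned, IGF2 was 0.21 and the pathway list's median moved to 0.41. Leaving out 1 array gave -0.0051 to 0.58 for IGF1, -0.42 to 0.0675 for IGF2, -0.22 to 0.67 for IGFBP2, 0.28 to 0.67 for IGFBP3, -0.23 to 0.0087 for IGFBP5 and 0.01 to 0.32 for the pathway list. The cause was not tested. For the probes that stand for the genes, no other setting changed a direction or a call. The dimmest IGF2 probe went from 0.03 to -0.03 with normexp and loess. No paired analysis was possible because the series has a single group of arrays, and each ratio already sets both channels of an array against each other. A fit of separate channels gave the same directions for the probes that stand for the genes (lowest adjusted p = 0.983).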
